A study of Mus musculus with 40 samples.

Results

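Retinas of mice with oxygen-induced retinopathy that had received 1 of 3 antibodies were compared with one another at postnatal day 17. The 3 groups were an antibody against VEGFA (B20.4.1), an antibody against ANG2 (LC10) and a bispecific antibody that joins both (B20.4.1_LC10), with 4 retinas each, so 12 of the 40 samples of the series. They were chosen by their labelled treatment and age, and every gene of the count table entered. All animals were C57BL/6J mice. In this model pups breathe 75% oxygen from day 7 to day 12, which stops retinal vessels from growing and closes those that have formed, and return to room air, where the now poorly supplied retina becomes hypoxic and sprouts pathological vessel tufts. At day 14 each injected eye received 1 µl into the vitreous, at 0.2 µg/µl for each single antibody and 0.4 µg/µl for the bispecific antibody, so the labelled concentrations of the groups differ. Retinas given 0.4 µg/µl of a control IgG, and retinas raised in room air without the model, are used below as reference levels only. Each sample was 1 whole retina, named as 1 of 4 independent samples. The labels do not say which mouse or litter a retina came from, so p-values measure spread between retinas, some of which may be technical. In the main test that spread was estimated over all 40 libraries in 10 groups, day 19 included, and not in these 12 alone.

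VEGFA is a secreted growth factor that hypoxic cells release and that drives endothelial cells to divide, sprout and leak through its receptor KDR (VEGFR2), while FLT1 (VEGFR1) binds it as a decoy. ANG2, encoded by Angpt2, is released by activated endothelium and antagonises ANG1 at the receptor TIE2 (Tek), which loosens the contact of vessels with pericytes. The antibodies bind the secreted proteins, so the mRNA of a target gene is a readout of the retina's response and not of the antibody's binding.

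Total expected counts were between 12541600 and 23317600 in the 12 retinas. Of 42037 genes in the table, 23495 passed the filter on low counts and were tested. Retinal identity was clear from Gnat1, the rod transducin gene, which stood between 11236 and 19974 CPM (counts scaled to the size of each library) in the 12 retinas. The first bispecific retina stood apart: its rank correlation with the other 11 across genes was 0.928 to 0.939, whereas those 11 correlated at 0.940 to 0.962 with one another. In whole-retina RNA, fewer cells of a type and less RNA per cell cannot be told apart. Levels below are CPM in single retinas, in replicate order, and a ratio is the edgeR estimate with its 95% interval, not adjusted for the number of genes.

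No gene passed the test between any pair of antibodies. The edgeR quasi-likelihood test called 0 of 23495 genes (0%) at an adjusted p under 0.05 for the VEGFA antibody against the ANG2 antibody, 0 for the bispecific against the VEGFA antibody, 0 for the bispecific against the ANG2 antibody and 0 in the test across all 3 groups. The smallest adjusted p by edgeR was 1 in each pair and 0.9999 across the 3 groups. At an unadjusted p under 0.05 the same test held 657 genes (2.80% of those tested), 676 (2.88%), 662 (2.82%) and 539 (2.29%). If p-values were evenly spread, 1175 genes would fall in that lowest bin. The limma-voom test and limma-trend on log2(TPM + 1) also called 0 genes in all 4 comparisons, with 1458, 907, 1501 and 1339 genes at an unadjusted p under 0.05 by limma-voom. DESeq2 called 7 genes (0.0298%), 15 (0.0639%), 19 (0.0809%) and 0 in the same order. These were mostly sex-linked genes and lens crystallins and are described with their levels below. The 3 pairs share their libraries, so each group enters 2 of them.

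**Figure D1:**
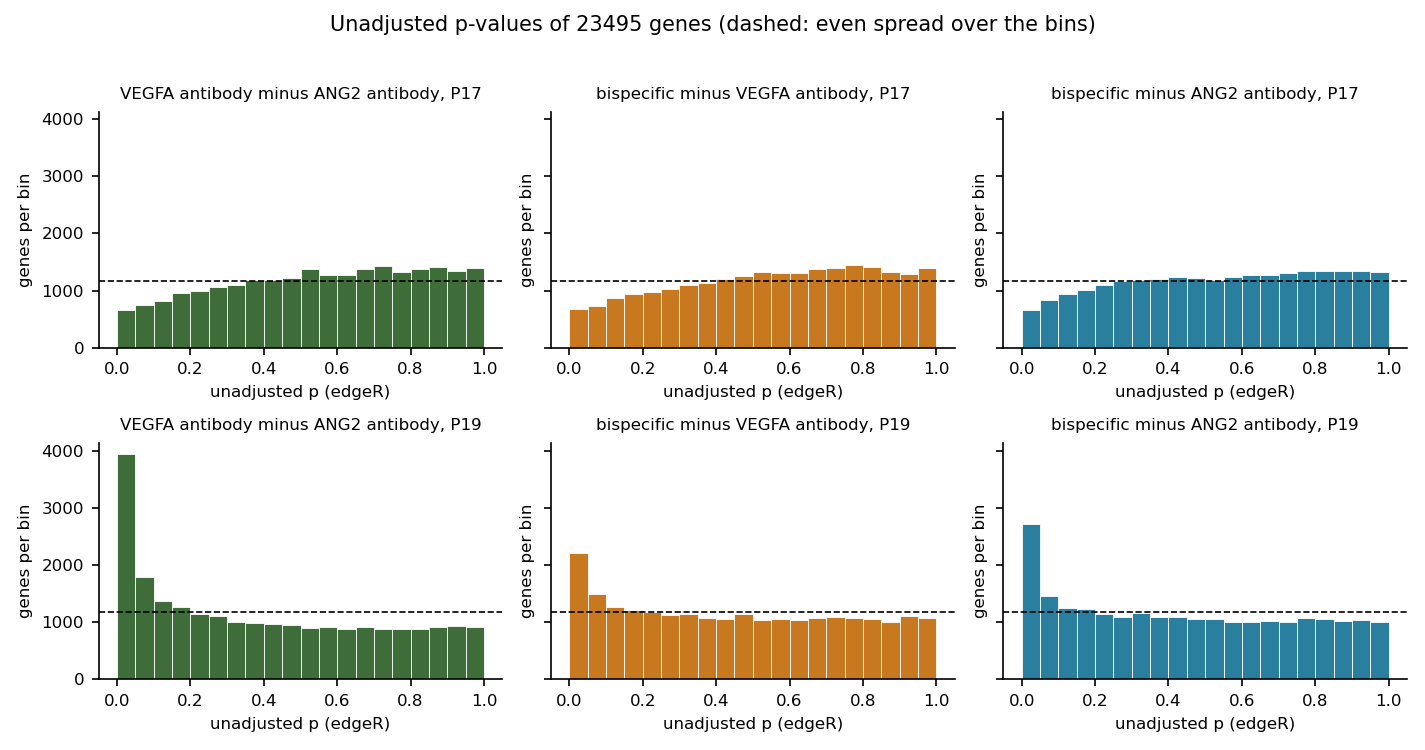
Histograms of unadjusted edgeR p-values over 23495 genes in 20 bins, for the 3 pairs of antibodies at day 17 and at day 19. The dashed line marks an even spread of 1175 genes per bin. At day 17 the lowest bin holds 657, 676 and 662 genes, all below the line, and at day 19 it holds 3940, 2217 and 2725.

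The intervals set how large a difference these retinas could have hidden. Over the 12581 genes with a mean of at least 5 CPM, the median 95% interval reached 1.36-fold to either side of the estimate. The whole interval lay within 2-fold for 86.1% of them in the VEGFA antibody against the ANG2 antibody, for 85.7% in the bispecific against the VEGFA antibody and for 84.9% in the bispecific against the ANG2 antibody. Among the 8113 genes of at least 20 CPM these shares were 97.7%, 97.7% and 97.0%. The estimate itself was over 2-fold for 43, 47 and 54 of the genes of at least 5 CPM. Groups without any overlap, with all 4 retinas of one above all 4 of the other, were found for 712 genes (3.03%), 485 (2.06%) and 879 (3.74%) in the same order of pairs.

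The targets came first. Vegfa (GRCm38 17:46016993-46032369, minus strand) stood at 151, 253, 239 and 275 CPM with the VEGFA antibody, at 231, 199, 225 and 259 with the ANG2 antibody and at 125, 231, 294 and 280 with the bispecific antibody. All 3 groups overlapped, and their means of 230 ± 54.2, 228 ± 24.9 and 232 ± 76.4 CPM (SD, n = 4) lay close to the 228 ± 23.9 of IgG retinas and above the 97.1 ± 6.89 of room-air retinas. The Vegfa ratio was 1.01 (0.763 to 1.33) for VEGFA antibody over ANG2 antibody, 1.01 (0.767 to 1.33) for bispecific over VEGFA antibody and 1.02 (0.772 to 1.34) for bispecific over ANG2 antibody. Angpt2 (8:18690263-18741562, minus strand) stood at 8.31, 10.6, 5.45 and 12.6 CPM with the VEGFA antibody, 11.6, 5.92, 6.29 and 10.8 with the ANG2 antibody and 9.01, 6.81, 14.1 and 7.80 with the bispecific antibody. Its groups overlapped too, at ratios of 1.07 (0.620 to 1.85), 1.02 (0.589 to 1.75) and 1.09 (0.630 to 1.88). An Angpt2 difference of up to 1.88-fold thus lies within these intervals.

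The receptors held the only small p among the VEGF and angiopoietin genes. Kdr, the main signalling receptor of VEGFA, stood at 84.0, 148, 87.4 and 159 CPM with the VEGFA antibody and at 71.0, 70.2, 94.9 and 109 with the ANG2 antibody, a ratio of 1.39 (1.02 to 1.90) with an unadjusted edgeR p of 0.040 and an adjusted p of 1. The second and the fourth VEGFA-antibody retinas lay above all ANG2-antibody retinas and the other 2 lay among them. With the bispecific antibody Kdr stood at 110, 77.9, 127 and 92.0. For Flt1, the decoy receptor, the ratios were 0.983 (0.755 to 1.28), 1.06 (0.815 to 1.38) and 1.04 (0.801 to 1.36). Placental growth factor, Pgf, which binds FLT1, averaged 2.75, 2.54 and 4.70 CPM with the VEGFA, ANG2 and bispecific antibody, and its intervals ran from 0.451 to 4.47. Tek, the TIE2 receptor, was too low to place: its interval for VEGFA antibody over ANG2 antibody ran from 0.0595 to 3.60. Its partner receptor Tie1 averaged 1.17, 1.13 and 2.27 CPM, with an interval of 0.461 to 8.19 for bispecific over VEGFA antibody. Of the 16 ligands and receptors, 10 leaned to the VEGFA antibody over the ANG2 antibody, 11 to the bispecific over the VEGFA antibody and 12 to the bispecific over the ANG2 antibody. Their median log2 differences were 0.07, 0.12 and 0.19, against −0.02, 0.01 and −0.01 over all genes tested.

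Genes of sprouting endothelium did not separate the antibodies. Apln, the tip-cell peptide apelin, stood at 24.4, 53.3, 31.2 and 48.3 CPM with the VEGFA antibody, 32.1, 27.3, 35.7 and 58.7 with the ANG2 antibody and 38.3, 40.2, 58.0 and 33.4 with the bispecific antibody. Those ranges lay over one another, at ratios of 1.02 (0.659 to 1.59), 1.08 (0.697 to 1.68) and 1.10 (0.712 to 1.71). Plvap, a protein of leaky vessels, averaged 5.11 ± 0.992, 4.91 ± 1.61 and 5.52 ± 1.44 CPM (SD, n = 4). Pecam1, a general endothelial adhesion molecule, averaged 2.57, 2.92 and 4.73 CPM, with the highest value, 8.30, in the first bispecific retina. Cldn5, a tight junction protein of the blood-retina barrier, averaged 6.63, 8.12 and 7.21 CPM. None of the 20 genes of tip cell and neovascular endothelium reached an unadjusted p under 0.05 in any pair. Rgs5, a pericyte gene, averaged 86.4, 92.5 and 91.5 CPM, and Acta2, smooth muscle actin, 12.4, 13 and 11.6.

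The hypoxia genes Ndufa4l2 and Adm averaged between the room-air and the IgG level in all 3 groups. Ndufa4l2, a target of hypoxia-inducible factor that replaces a subunit of the respiratory chain, stood at 45.7, 71.5, 46.3 and 57.1 CPM with the VEGFA antibody, 55.2, 60.1, 54.1 and 68.7 with the ANG2 antibody and 79, 62.2, 70.7 and 97.7 with the bispecific antibody. The bispecific retinas lay highest in the mean, at 77.4 ± 15.2 against 80.3 ± 12 in IgG retinas and 7.32 ± 1.41 in room air (SD, n = 4), but a VEGFA-antibody retina at 71.5 and an ANG2-antibody retina at 68.7 overlapped them. The Ndufa4l2 ratio of bispecific over VEGFA antibody was 1.4 (1.00 to 1.97), and over ANG2 antibody 1.3 (0.928 to 1.83). Adm, adrenomedullin, a vasoactive peptide that hypoxia induces, averaged 14.5 ± 5.99, 17.3 ± 5.11 and 20.7 ± 9.48 CPM, against 31.8 ± 7.82 in IgG retinas. Its bispecific over VEGFA antibody ratio was 1.43 (0.813 to 2.50). Of the 30 hypoxia and HIF targets, 20 leaned higher with the bispecific than with the VEGFA antibody and 21 higher than with the ANG2 antibody, at medians of 0.10 and 0.13 on the log2 scale. In each pair 1 had an unadjusted p under 0.05, beside 1.60% and 1.21% of all genes in the higher direction. A single member is too few to compare with those shares.

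**Figure D2:**
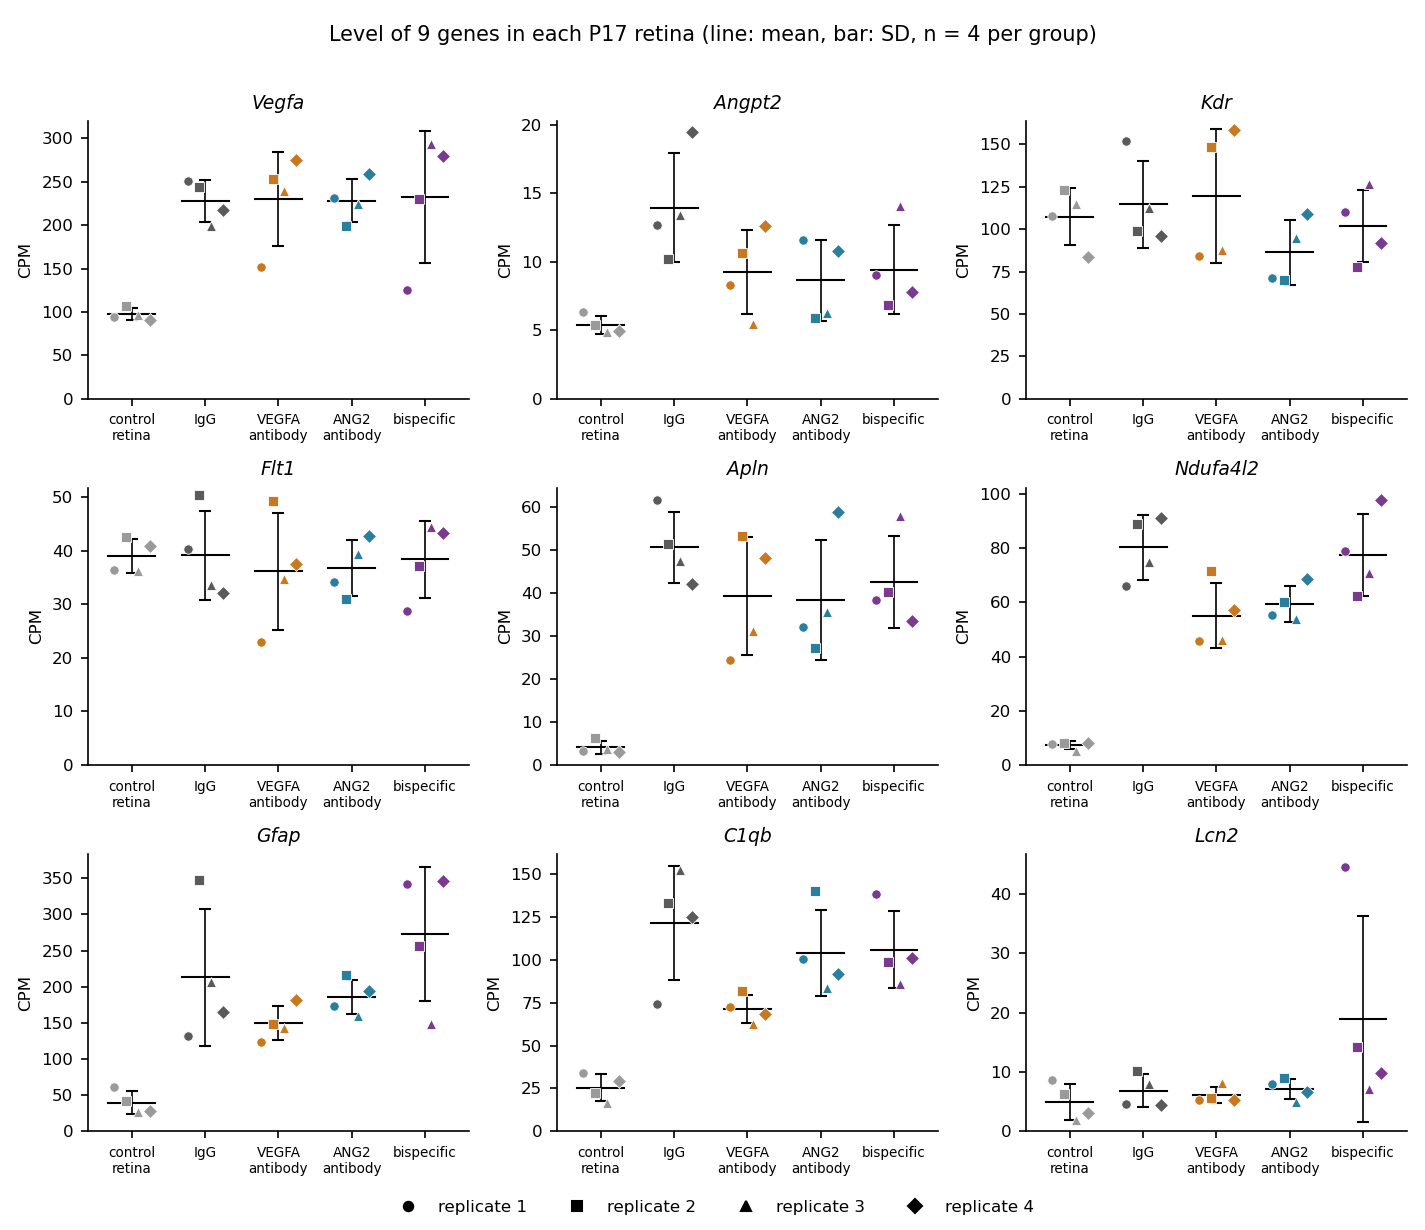
CPM of 9 genes in each retina of the 5 day-17 groups, with the mean as a line and the SD as a bar (4 retinas a group). Vegfa and Angpt2 overlap among the 3 antibodies, C1qb lies lower in the 4 VEGFA-antibody retinas (62.6 to 81.7) than in the other antibody groups, and Lcn2 is highest in the first bispecific retina at 44.5.

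Reactive glia genes leaned higher with the bispecific antibody. Of 22 measured genes of this group, 21 were higher in estimate than with the VEGFA antibody, at a median log2 difference of 0.55, and 8 of them had an unadjusted p under 0.05, in a comparison where 1.60% of all genes reached that p in the same direction. Against the ANG2 antibody 21 of 22 were also higher in estimate, at a median of 0.46, with 2 at that p against 1.21% of all genes. No member passed edgeR's adjusted test. The VEGFA antibody against the ANG2 antibody gave a median of −0.25, with 18 of 22 lower and 0 at that p, which 1.14% of all genes reached in the higher and 1.65% in the lower direction. The 3 medians share libraries and are not independent of one another. Summed over the 22 genes, the means were 747, 801 and 1020 CPM with the VEGFA, ANG2 and bispecific antibody. IgG retinas averaged 1015 and room-air retinas 489, so the bispecific mean was near the IgG level. Bispecific retina 3, at 751, lay within the range of both other antibodies.

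Gfap, the intermediate filament that Müller glia and astrocytes make under stress, stood at 124, 149, 144 and 182 CPM with the VEGFA antibody, 174, 215, 160 and 194 with the ANG2 antibody and 341, 256, 148 and 346 with the bispecific antibody. Bispecific retinas 1, 2 and 4 lay above every retina of the other antibodies and retina 3 lay among them. The Gfap ratio of bispecific over VEGFA antibody was 1.82 (1.12 to 2.96), with an unadjusted edgeR p of 0.017 and an adjusted p of 1, and over ANG2 antibody 1.47 (0.906 to 2.38). IgG retinas averaged 213 ± 94.9 and room-air retinas 39.8 CPM (SD, n = 4). Lcn2, lipocalin 2, an iron-binding protein of inflammation and reactive astrocytes, stood at 5.35, 5.58, 8.21 and 5.30 CPM with the VEGFA antibody, 7.94, 8.92, 4.95 and 6.68 with the ANG2 antibody and 44.5, 14.2, 7.08 and 9.79 with the bispecific antibody. Its ratios were 3.09 (1.58 to 6.06) and 2.65 (1.36 to 5.17), and bispecific retina 1 was far the highest at 44.5, while retina 3 at 7.08 overlapped both other groups.

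Bispecific retina 1 was also the highest for Timp1 and Steap4, and retina 4 for Cebpd and Edn2. Timp1, an inhibitor of matrix metalloproteinases, stood at 15.1, 4.26, 1.59 and 4.73 CPM with the bispecific antibody against 1.15 to 1.4 with the VEGFA antibody and 1.37 to 2.12 with the ANG2 antibody. All 4 bispecific values of Timp1 were above all VEGFA-antibody values, at a ratio of 4.80 (1.54 to 15). Steap4, a metalloreductase, was at 0, 0, 0.0768 and 0 CPM with the VEGFA antibody, 0, 0, 0 and 0.944 with the ANG2 antibody and 4.25, 2.81, 0.977 and 1.45 with the bispecific antibody, so its groups did not overlap, although at counts near 0 in the others. Cebpd, an inflammatory transcription factor, had a bispecific over VEGFA antibody ratio of 1.89 (1.16 to 3.07), and Edn2, endothelin 2, which stressed photoreceptors release, one of 3.44 (1.26 to 9.36). Edn2 stood at 6.63, 6.91, 3.36 and 10.2 CPM with the bispecific antibody against 0, 4.19, 1.38 and 2.22 with the VEGFA antibody, and at 2.01, 9.44, 5.02 and 2.29 with the ANG2 antibody. Without the first bispecific retina the reactive glia median over the VEGFA antibody was 0.56, with 3 of 22 genes at an unadjusted p under 0.05. Without the fourth the median against the ANG2 antibody was 0.20.

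Complement and microglia genes stood lowest with the VEGFA antibody. C1qb, a chain of the complement initiator C1q that retinal microglia make, stood at 72.7, 81.7, 62.6 and 68.2 CPM with the VEGFA antibody, 100.2, 140.3, 83.6 and 91.4 with the ANG2 antibody and 138, 98.4, 86.1 and 101 with the bispecific antibody. All 4 VEGFA-antibody values were below all 8 of the other antibodies, whereas those 2 groups overlapped. The ratio was 0.687 (0.503 to 0.937) for VEGFA antibody over ANG2 antibody, 1.48 (1.09 to 2.02) for bispecific over VEGFA antibody and 1.02 for bispecific over ANG2 antibody. The unadjusted edgeR p values of the first pair of ratios were 0.019 and 0.014 and both adjusted p were 1. Its partner chains were also lower with the VEGFA than with the bispecific antibody. C1qa stood at 27.7, 33.9, 26.9 and 30.6 CPM with the VEGFA antibody against 55.3, 47.0, 37.3 and 41.6 with the bispecific antibody. C1qc stood at 42.2, 46.0, 35.8 and 39.5 against 66.9, 68.6, 47.4 and 62.6. Neither gene overlapped between those groups, as was so for 2.06% of all genes tested in that pair. IgG retinas averaged 121 CPM of C1qb and room-air retinas 25.5.

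The wider lists leaned the same way. Of 14 measured complement genes, 13 were higher in estimate with the bispecific than with the VEGFA antibody at a median of 0.53 on the log2 scale, with 3 at an unadjusted p under 0.05, which 1.60% of all genes reached in that direction. Of 20 microglia and macrophage genes, 17 were, at a median of 0.32, with 5 at that p against the same 1.60% of all genes. Of the same list, 17 of 20 were lower with the VEGFA than with the ANG2 antibody, at −0.29. For the bispecific against the ANG2 antibody those medians were 0.19 and 0.03. Trem2, a lipid receptor of activated microglia, averaged 8.82 ± 2.48, 9.54 ± 4.48 and 15.3 ± 3.41 CPM with the VEGFA, ANG2 and bispecific antibody (SD, n = 4), and its bispecific over VEGFA antibody ratio was 1.73 (1.12 to 2.69). Cd68, a lysosomal protein of macrophages, averaged 10.5, 16.8 and 19.5 CPM. Lyz2, a macrophage lysozyme, averaged 32.5, 29.8 and 40.4 CPM. Aif1, which encodes the microglia protein IBA1, averaged 1.84, 2.42 and 2.11 CPM, and Ccl2, a monocyte chemokine, stayed below 1 CPM in the mean of each group at 0.585, 0.249 and 0.876. The sum over the 20 microglia and macrophage genes was 427 to 578 CPM with the VEGFA antibody, 506 to 762 with the ANG2 antibody and 564 to 798 with the bispecific antibody, so the groups overlapped in total. The sum over the 14 complement genes was 441, 372, 287 and 338 CPM with the bispecific antibody and 221 to 307 with the VEGFA antibody. It was thus highest in bispecific retinas 1 and 2, and retina 3 lay within the VEGFA-antibody range.

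**Figure D3:**
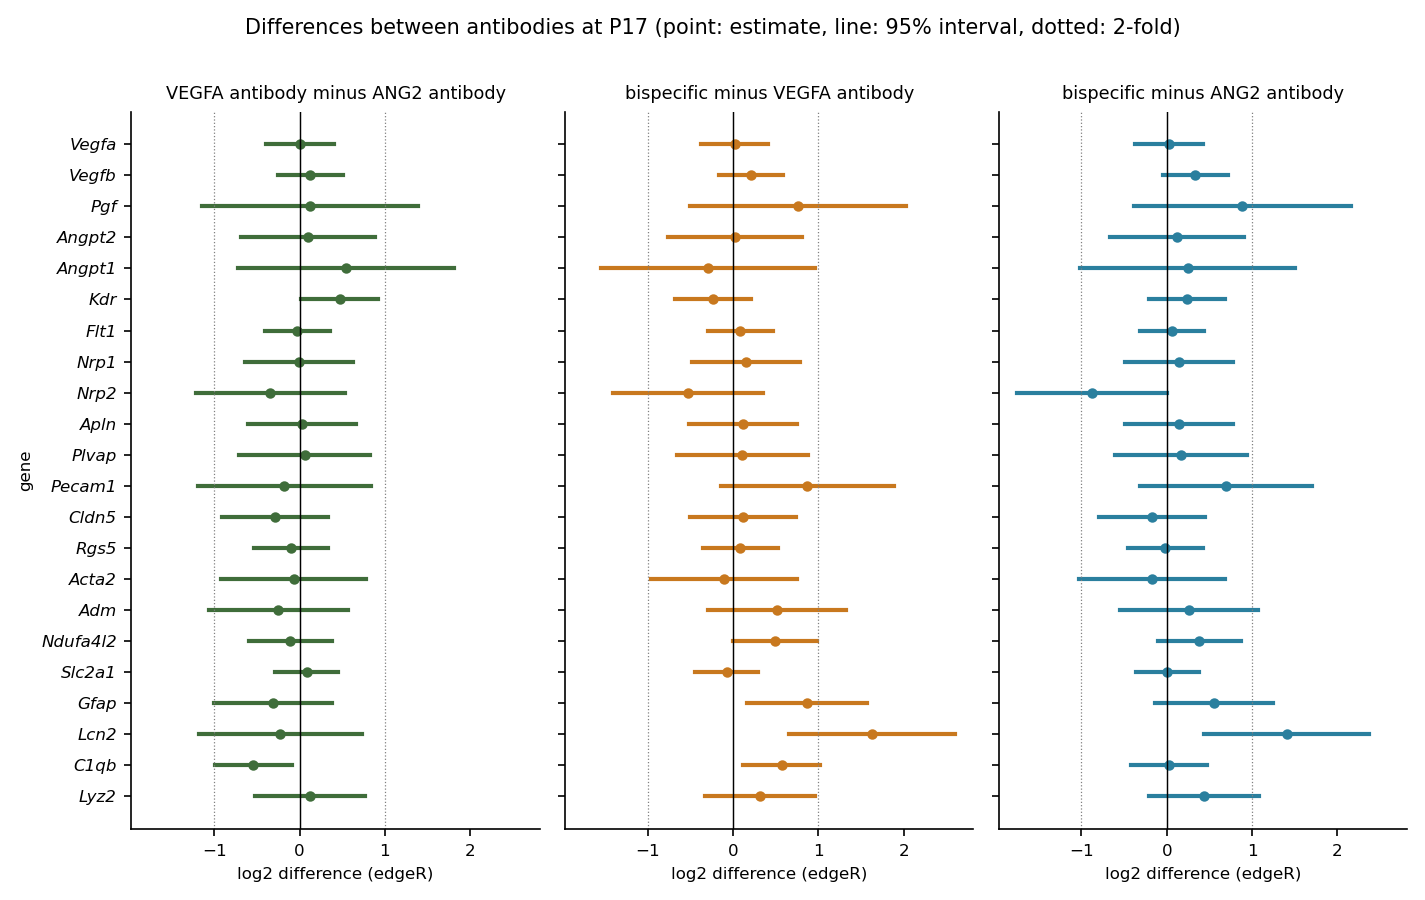
Log2 difference with its 95% interval for 22 genes in the 3 pairs of antibodies at day 17, from the edgeR fit. Dotted lines mark a 2-fold difference. The intervals of Vegfa and Flt1 lie within 2-fold in all 3 pairs, and those of Lcn2 and Gfap lie above 0 for the bispecific against the VEGFA antibody.

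Photoreceptor genes were slightly higher in estimate with the VEGFA antibody than with the ANG2 antibody. Gnat1 stood at 17331, 13415, 17015 and 11996 CPM with the VEGFA antibody, 14828, 11260.4, 11519 and 11807 with the ANG2 antibody and 19974, 13818, 12750.3 and 11236 with the bispecific antibody. The first bispecific retina was the highest, and the groups overlapped, at ratios of 1.21 (0.955 to 1.53), 0.967 (0.763 to 1.22) and 1.17 (0.923 to 1.48). Slc24a1, the rod calcium exchanger, stood at 589, 572, 613 and 582 CPM with the VEGFA antibody against 490, 415, 461 and 462 with the ANG2 antibody, with no overlap and a ratio of 1.29 (1.04 to 1.60). Of 20 rod genes, 18 were higher in estimate with the VEGFA than with the ANG2 antibody, at a median of 0.23, with 2 at an unadjusted p under 0.05 against 1.14% of all genes. Their sum was 94532, 68601, 89513 and 64059 CPM with the VEGFA antibody and 62145 to 76764 with the ANG2 antibody. Only VEGFA-antibody retinas 1 and 3 thus lay above the ANG2-antibody range. Their mitochondrial share of counts was 6.49% and 6.22%, against 3.03% and 3.57% in retinas 2 and 4. The part of this split was not tested. For the bispecific antibody the medians were −0.07 against the VEGFA antibody and 0.19 against the ANG2 antibody. Of 18 glycolysis genes, 17 were higher with the VEGFA than with the ANG2 antibody, at a median of 0.13, and 17 higher with the bispecific than with the ANG2 antibody, at 0.24.

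Proliferation genes were lower in estimate with the VEGFA than with the ANG2 antibody for 19 of 22 members, at a median of −0.39 on the log2 scale, with 2 at an unadjusted p under 0.05 against 1.65% of all genes. Plk1, a mitotic kinase, stood at 2.40, 1.82, 4.15 and 1.24 CPM with the VEGFA antibody against 5.25, 7.81, 6.79 and 4.86 with the ANG2 antibody, with no overlap and a ratio of 0.387 (0.221 to 0.676). With the bispecific antibody it stood at 4.38, 6.29, 2.56 and 3.39, between the others. With the Y-linked counts described below as a covariate, the proliferation median of the VEGFA against the ANG2 antibody was −0.20. All VEGFA-antibody and no ANG2-antibody retinas carried those counts. The covariate was thus fitted mostly on other groups and cannot separate sex from antibody in this pair.

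**Figure D4:**
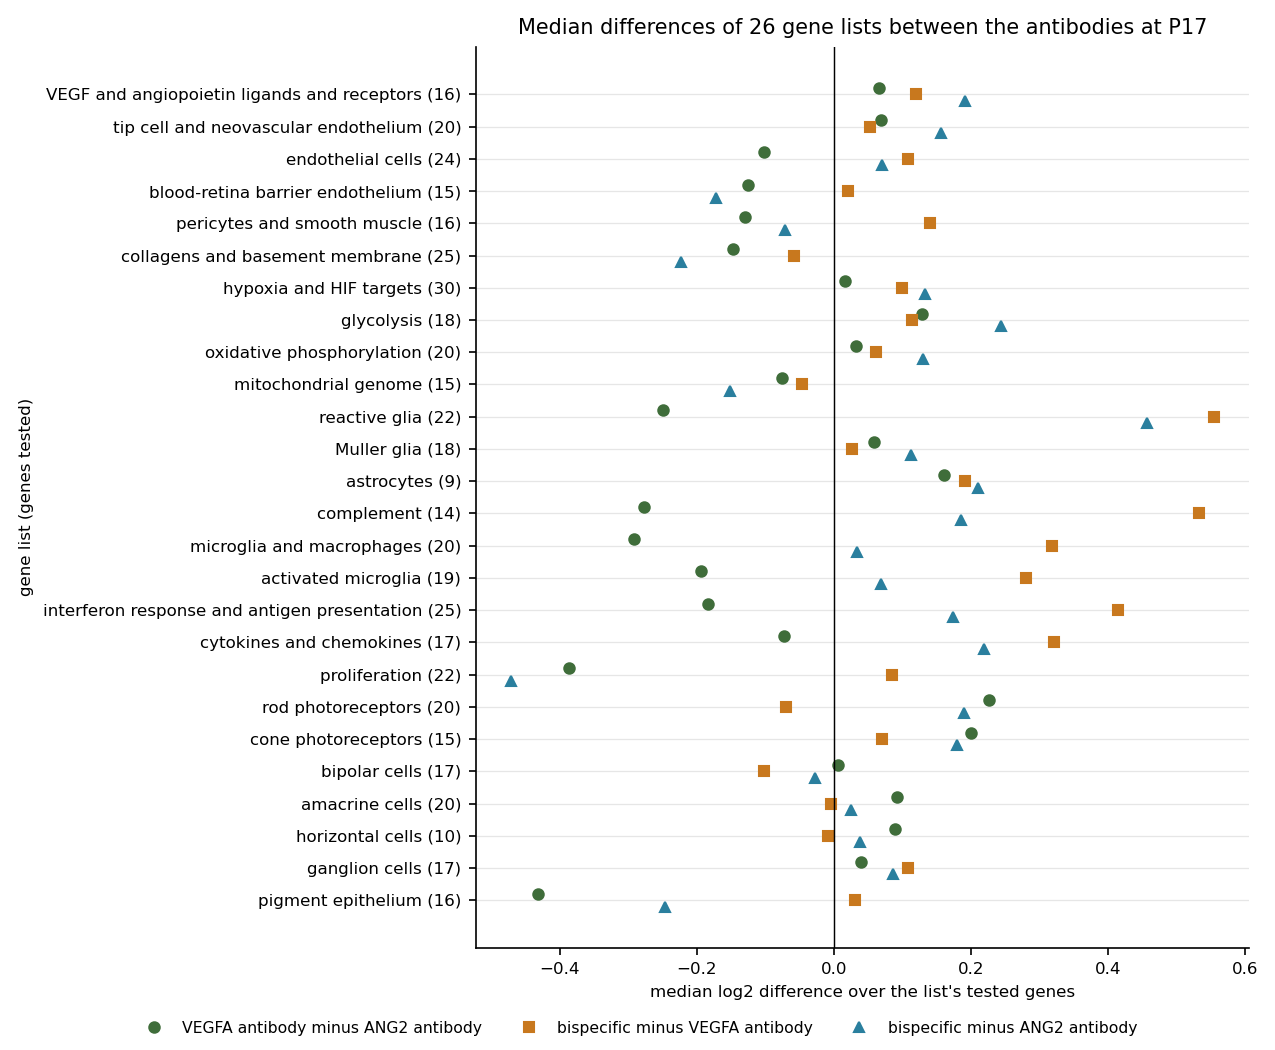
Median log2 difference of 26 gene lists in the 3 pairs of antibodies at day 17. The reactive glia, complement and microglia lists lie to the right for the bispecific against the VEGFA antibody (0.55, 0.53 and 0.32), while the median over all genes is 0.01. In summed complement CPM bispecific retina 3, at 287, lies within the VEGFA-antibody range of 221 to 307. No list member passed edgeR's adjusted test.

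The genes with the smallest p in each pair included many sex-linked, lens and muscle genes, whose kinds are described further below. These were Xist, Tsix, Eif2s3y, Uty and Ddx3y for the VEGFA against the ANG2 antibody. For the bispecific against the VEGFA antibody they were Cryaa, Crybb2, Cryba1 and Crygn. Against the ANG2 antibody they were Acta1, Actn3, Atp2a1, Cryaa, Crybb2, Crygc, Cryba1 and Crygs. The genes of other kinds are given here. For the VEGFA antibody against the ANG2 antibody the smallest belonged to Taf8 (17:47483364-47502292, minus strand), a subunit of the general transcription factor TFIID. It stood at 29.5, 36.2, 40.3 and 34.7 CPM with the VEGFA antibody, 24.9, 21, 16.9 and 21.4 with the ANG2 antibody and 30.2, 26.7, 28.5 and 33.6 with the bispecific antibody. All ANG2-antibody retinas lay below all others, and the ratio of VEGFA over ANG2 antibody was 1.67 (1.32 to 2.12), with an unadjusted edgeR p of 8.98e-05 and an adjusted p of 1. Idi1, an isomerase of cholesterol synthesis, stood at 63.9, 50.2, 50.8 and 49.7 CPM with the VEGFA antibody against 32.3, 38, 36.5 and 33 with the ANG2 antibody. Pitpnc1, a phosphatidylinositol transfer protein, stood at 51.3, 49.7, 48.1 and 53.2 against 35.8, 27.9, 26.2 and 45.2. Neither overlapped, and their ratios were 1.53 (1.21 to 1.95) and 1.5 (1.2 to 1.88). Pomk, a kinase of dystroglycan glycosylation, had a ratio of 1.52 (1.16 to 1.97).

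For the bispecific against the VEGFA antibody, Pm20d2 (4:33174230-33189737, minus strand), a dipeptidase, was the lowest in all 4 bispecific retinas at 6.24, 7.80, 6.35 and 7.10 CPM. It stood at 14.4, 10.7, 10.9 and 16.4 with the VEGFA antibody and 12.2, 10.2, 11.9 and 13.1 with the ANG2 antibody, at ratios of 0.526 (0.366 to 0.756) and 0.579 (0.403 to 0.833). Tnfaip3, which encodes the NF-κB inhibitor A20, stood at 80.4, 99.1, 94.7 and 87.5 CPM with the VEGFA antibody against 79.8, 49.8, 65.6 and 52.5 with the bispecific antibody and 69.8, 57.8, 69.2 and 69.9 with the ANG2 antibody. The VEGFA-antibody retinas lay above all others, and the bispecific over VEGFA antibody ratio was 0.684 (0.548 to 0.854). Cmtm4, a membrane protein that stabilises PD-L1, had a ratio of 1.85 (1.29 to 2.65), and Pnpla8, a phospholipase, one of 0.701 (0.569 to 0.865). For the bispecific against the ANG2 antibody, Arhgap15 (2:43748824-44395953, plus strand), a GTPase-activating protein of Rac, stood at 5.02, 4.73, 6.84 and 3.82 CPM against 15.4, 11.8, 6.57 and 15.2. The groups overlapped only through the third ANG2-antibody retina, and the ratio was 0.417 (0.268 to 0.648). Kctd21, a ubiquitin ligase adaptor, stood at 21.2, 12.6, 8.79 and 11 CPM against 6.37, 6.90, 4.38 and 5.26, at a ratio of 2.34 (1.45 to 3.77).

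Sex-linked genes divided the groups unevenly. Xist, the RNA of the inactive X chromosome, stood at 0, 1.06, 0.154 and 0.216 CPM with the VEGFA antibody, at 764, 683, 665 and 629 with the ANG2 antibody and at 232, 569, 23.3 and 5.06 with the bispecific antibody. The sum of 4 Y-linked genes (Ddx3y, Eif2s3y, Kdm5d and Uty) was 232, 196, 278 and 208 CPM, then 0 in every ANG2-antibody retina, then 0, 0.208, 199.6 and 196 with the bispecific antibody. The VEGFA-antibody retinas thus carried Y-linked counts, the ANG2-antibody retinas did not, and the bispecific group held 2 of each kind. Sex and antibody cannot be told apart between the VEGFA and the ANG2 antibody. All 4 bispecific retinas had Xist levels below those of the ANG2-antibody retinas. Of the DESeq2 calls, 5 of 7, 1 of 15 and 4 of 19 were sex-linked.

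Within retinas that carried Y-linked counts, the bispecific against the VEGFA antibody compared 2 retinas with 4. The reactive glia median was then 0.55 and the complement median 0.04, against 0.55 and 0.53 with all retinas. The complement median was thus near 0 without bispecific retinas 1 and 2, although C1qa stood at 37.3 and 41.6 CPM in the remaining 2, above all VEGFA-antibody values. The part of sex in these differences was not tested. edgeR called 0 genes in that comparison, with 579 at an unadjusted p under 0.05. Within retinas without Y-linked counts, the bispecific against the ANG2 antibody gave 2 calls, Acta1 and Myh4, both muscle genes, with 992 at an unadjusted p under 0.05.

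Lens and muscle RNA varied between retinas of a group. Cryaa, the lens α-crystallin, stood at 5.35, 1.06, 3.76 and 2451 CPM with the VEGFA antibody, 0.0559, 2264, 89.0 and 243 with the ANG2 antibody and 0.966, 0.104, 0.793 and 0.269 with the bispecific antibody. The sum of 16 crystallins was 81.6 to 6344 CPM, 74.1 to 6480 and 89.9 to 114 in these groups, and 109 to 4498 in IgG retinas. Room-air retinas stood at 50.9 to 104, so the bispecific retinas were near the room-air level while each other injected group held at least 1 retina far above it. Of the DESeq2 calls, 11 of 15 against the VEGFA antibody and 12 of 19 against the ANG2 antibody were lens genes, and of the others against the ANG2 antibody Actn3 is a muscle gene and Arhgap15 and Arsi are of other kinds. Acta1, skeletal muscle actin, stood at 3.22, 125, 7.08 and 3.44 CPM with the bispecific antibody, where retina 2 was high, at 5.66, 4.57, 43.3 and 7.35 with the VEGFA antibody, where retina 3 was, and at 4.10 to 5.66 with the ANG2 antibody. The retinal pigment epithelium gene Rpe65 stood at 148, 126, 32.2 and 93.2 CPM with the VEGFA antibody against 122 to 152 with the ANG2 antibody and 98.9 to 129 with the bispecific antibody. The part of this tissue in other differences was not tested beyond the fit with pigment epithelium and crystallin levels as covariates, which called 0 genes in all 4 comparisons by edgeR, with 1129, 900, 1397 and 1042 at an unadjusted p under 0.05.

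Arsi separated the bispecific retinas from all others. It was chosen after its values were seen, since its level is under the 5 CPM asked of other named genes. It encodes arylsulfatase I, a sulfatase. It stood at 1.97, 3.43, 3.45 and 3.35 CPM with the VEGFA antibody, 1.96, 2.34, 1.98 and 2.7 with the ANG2 antibody and 0.257, 0.208, 0.183 and 0.161 with the bispecific antibody, which is 4, 4, 3 and 3 counts against 28 to 81. IgG retinas stood at 1.76, 0.966, 1.80 and 1.46 CPM and room-air retinas at 3.06 to 4.75, so all 4 bispecific values were below all 16 others of day 17. The Arsi ratio was 0.0684 (0.0181 to 0.258) over the VEGFA antibody and 0.0929 (0.0251 to 0.345) over the ANG2 antibody. Its adjusted p by edgeR was 1 when all 40 libraries shared 1 estimate of the spread, 0.0417 over the VEGFA antibody and 0.172 over the ANG2 antibody when the 12 libraries were fitted alone, and 0.0013 and 0.0092 when the 20 libraries of day 17 were. DESeq2 gave adjusted p of 0.0063 and 0.04999. At day 19 the bispecific values of Arsi were 0.262, 0, 6.22 and 0.954 CPM and no longer lay apart from the others.

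**Figure D5:**
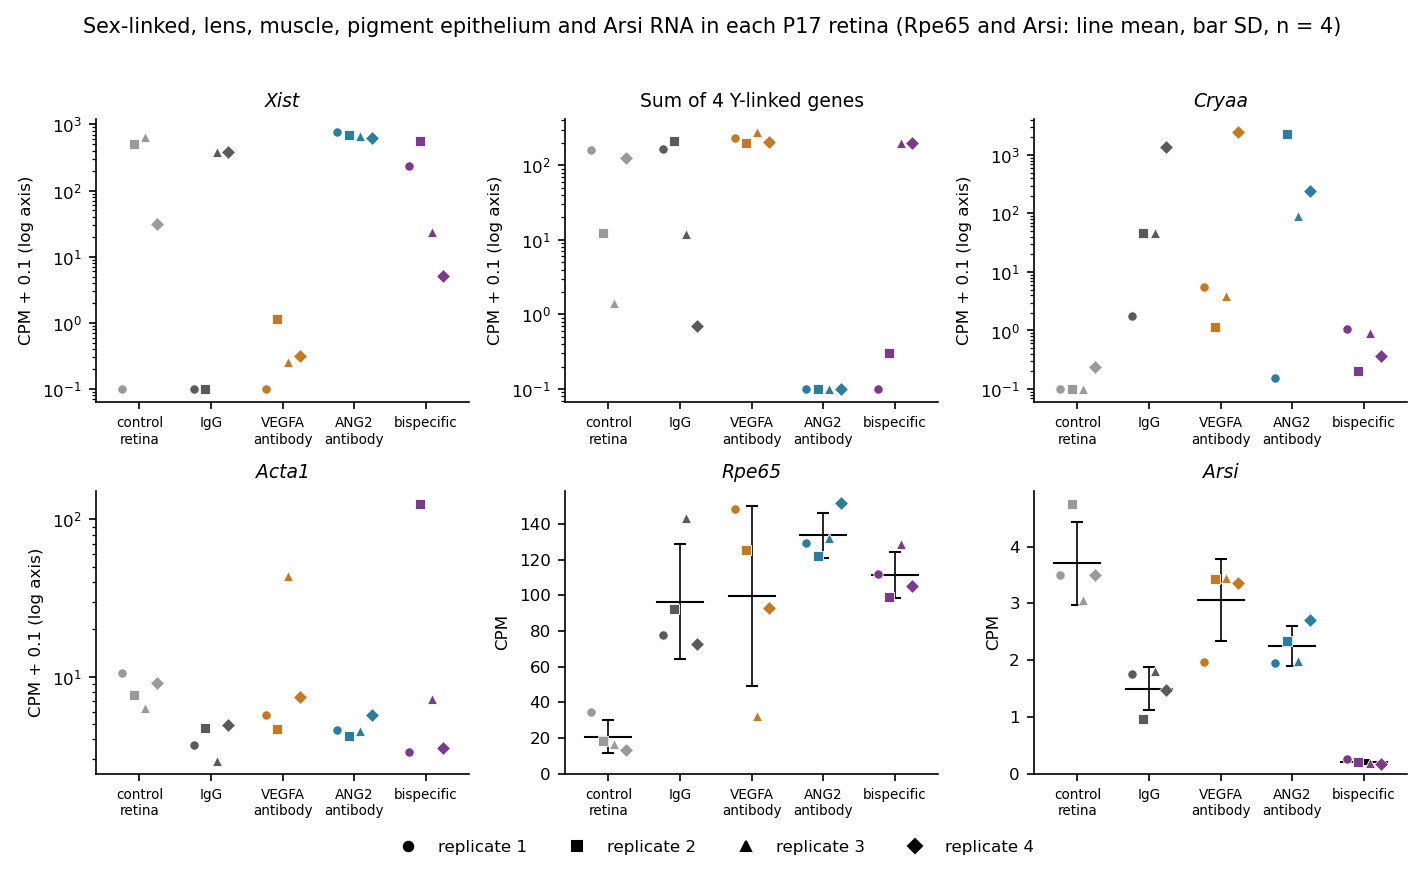
CPM in each retina of the day-17 groups for Xist, the sum of 4 Y-linked genes, Cryaa and Acta1 (log axis, CPM + 0.1) and for Rpe65 and Arsi (linear axis). Xist and Y-linked counts part the VEGFA-antibody from the ANG2-antibody retinas, Cryaa is highest at 2451 and 2264 in 1 VEGFA-antibody and 1 ANG2-antibody retina, and Arsi is lowest in the 4 bispecific retinas.

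The same pairs at day 19 were used to ask whether the leanings of day 17 recurred in other retinas. Y-linked sums at day 19 were 0, 0, 219 and 245 CPM with the VEGFA antibody and 164, 149, 12.9 and 0.299 with the ANG2 antibody. They were 0 in every bispecific retina. The balance of sexes in the groups thus differed between the ages, and its part in the differences between the ages was not tested. At day 19 edgeR called 56 genes (0.238%) between the VEGFA and the ANG2 antibody, 43 higher and 13 lower, 13 genes (0.0553%) between the bispecific and the VEGFA antibody and 0 between the bispecific and the ANG2 antibody, where 2725 (11.6%) had an unadjusted p under 0.05. DESeq2, which gave an adjusted p to 13472, 10285 and 11651 genes in these pairs, called 1044 (7.75% of those), 152 (1.48%) and 401 (3.44%), so its shares are over other totals than those of edgeR. Of those 56 genes, 27 had the same sign at day 17 and 2 of them an unadjusted p under 0.05 there. Of the 13, 10 had the same sign and 0 that p. The reactive glia medians at day 19 were −0.10, 0.05 and −0.18, in place of −0.25, 0.55 and 0.46. The rod medians were −0.46, 0.20 and −0.27, in place of 0.23, −0.07 and 0.19, so the sign differed in all 3 pairs. Summed complement CPM averaged 261, 344 and 295 at day 19 with the VEGFA, ANG2 and bispecific antibody, in place of 264, 332 and 360. Microglia and macrophage sums averaged 466, 671 and 578, in place of 492, 598 and 650. Both means were thus again lowest with the VEGFA antibody, although bispecific retina 3 of day 19 lay lower still, at 165 and 302. Proliferation sums averaged 200 with the VEGFA and 226 with the ANG2 antibody, in place of 189 and 207. The test of the difference between the ages itself called 0 genes in each pair by edgeR, with 2668 (11.4%), 1155 (4.92%) and 2325 (9.90%) at an unadjusted p under 0.05, whereas DESeq2 called 106 of 5275 genes with an adjusted p (2.01%), 20 of 23032 (0.0868%) and 22 of 23486 (0.0937%).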

How the data were processed

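Whole-retina RNA was amplified with a SMART-Seq mRNA kit and made into libraries with Nextera XT, per the labels' protocols, neither of which marks strand. The submitters' processing notes name STAR 2.7.10a, RSEM 1.3.3 and the build GRCm38.p4, and the annotation was not given in the sources. The deposited expected counts were rounded to whole numbers (15.7% of values above 0 were not whole), and the deposited TPM values served in 1 alternative. The table has no gene identifiers beyond symbols, and 2036 entries are suffixed copies of a symbol, 516 of them tested. Coordinates come from GENCODE M21 by symbol. All 40 libraries in 10 groups were fitted in R 4.3.3 with edgeR 4.0.16 (filterByExpr, TMM, quasi-likelihood test), without covariates. Benjamini-Hochberg adjustment ran over all 23495 genes, with 0.05 as the threshold. limma 3.58.1 (voom, and trend on log2 of TPM + 1) and DESeq2 1.42.0 were alternatives, as were other scaling, no filter, covariates, fewer libraries and each retina left out. The edgeR fit was tested on simulated data.

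Genes named were, per pair, the 10 with the smallest p whose higher group averaged 5 CPM or more, since under 10 were called, the 15 with the smallest p in the 3-group test, and a set list of vessel, glial, immune, photoreceptor and sex-linked genes. 1 gene of that list is not reported here. Further members of lists were named after their values were seen. The comparisons and the 43 gene lists were chosen with earlier results of these data known.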

Additional observations from a re-analysis of the deposited data

Results flagged for a closer look

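Of 120 sets of 4 retinas examined for the named genes, 22 held a retina far from the other 3, by Dixon's test of the gap against the range. Chance gives about 1 in 20 for independent sets. These sets are not independent, since 1 retina was flagged for several genes of the same tissue, so the 22 cannot be set against that share. In 21 the retina was high and in 1 it was low. The fourth VEGFA-antibody retina was far above the others for lens crystallins, with Cryaa at 2451 CPM, Cryba1 at 877, Crybb2 at 499.6, Crygc at 254, Crygn at 20.05 and Crygs at 419. The second ANG2-antibody retina was so for the same 6 genes, at 2264, 688, 453, 361, 13.7 and 429 CPM. Muscle genes were high in the second bispecific retina, with Acta1 at 125 CPM, Actn3 at 26.9 and Atp2a1 at 78.9, and Acta1 was high in the third VEGFA-antibody retina at 43.3.

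The first bispecific retina stood above the other 3 for Cmtm4 at 27.2 CPM and Pecam1 at 8.30. The third ANG2-antibody retina was high for Nrp1 at 24.6 CPM. Among VEGFA-antibody retinas the first was high for Idi1 at 63.9 CPM and the third for Lcn2 at 8.21. Tnfaip3 was low in the second ANG2-antibody retina, at 57.8 CPM.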

How the results depend on the processing

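The count of genes called by edgeR stayed at 0 in all pairs with each retina left out in turn (0 to 0), and under other scaling, no filter, the covariates tried and both limma tests at day 17. It differed in these cases. DESeq2 called 7, 15 and 19 genes in the 3 pairs. With the 12 libraries alone edgeR called 1 gene, and with the 20 libraries of day 17 it called 1 for the bispecific against each single antibody and 1 across the 3 groups; each was Arsi. The bispecific retinas without Y-linked counts gave 2 calls against the ANG2 antibody. For the difference between ages, limma-voom and limma-trend on TPM each called 1 gene for the VEGFA against the ANG2 antibody, and DESeq2 called 106, 20 and 22. The causes were not tested. The fits of the 20 libraries, of the bispecific retinas split by Y-linked counts and without bispecific retina 1 among the 12 were added after seeing the data.

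Replicate numbers shared by the groups did not pair the retinas: 12 same-number pairs correlated at −0.07 to 0.07 in their deviations. Pairs of unlike number correlated at −0.11 to 0.11. Each retina was also matched to each other group, and in 8 of these 24 searches the best match had its own number. With the replicate block edgeR called 0 genes in each pair and across the 3 groups, with 652, 619, 667 and 503 at an unadjusted p under 0.05.

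Of 2871 values for 117 gene results under the alternatives, 21 (13 genes) passed the threshold that they had missed. A further 13 changed sign by more than the standard error and are given below, 142 changed sign by less than it, and the others kept direction and side of the threshold. For the VEGFA against the ANG2 antibody, Pgf was −0.55 and Tek 1.00 with a covariate of Y-linked counts, and Cryaa −7.62 to 2.48 with each retina left out, the latter without ANG2-antibody retina 2 (log2). That covariate cannot separate sex from antibody in this pair. For the bispecific against the VEGFA antibody, Rgs5 was −0.17 among retinas with Y-linked counts. For the bispecific against the ANG2 antibody, leaving out each retina gave −0.028 to 3.28 for Acta1, −0.18 to 5.43 for Atp2a1 and −0.38 to 0.49 for Angpt1, each lowest without bispecific retina 2. Among retinas without Y-linked counts Vegfa was −0.36, Flt1 −0.16 and Adm −0.33. With the Y-linked covariate Adm was −0.21 and Xist 0.24. With pigment epithelium and crystallins as covariates Esm1 was −0.81. The 4 retinas a group and the intervals above limit what could be seen. Over the alternatives at day 17 the reactive glia median of bispecific against VEGFA antibody was 0.40 to 0.69 and the complement median 0.04 to 0.64.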

Other observations

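Genes of the interferon response and antigen presentation also leaned higher with the bispecific than with the VEGFA antibody, for 20 of 25 measured members, at a median log2 difference of 0.42 against 0.01 over all genes. 3 of them had an unadjusted edgeR p under 0.05, against 1.60% of all genes in that direction, and 0 passed the adjusted test. H2-D1, a class I antigen-presenting molecule, stood at 59.7, 32.5, 34.4 and 41.4 CPM with the bispecific antibody against 28.5, 37.9, 19.8 and 29.4 with the VEGFA antibody and 28.2, 32, 28.3 and 28.6 with the ANG2 antibody. The bispecific retinas of H2-D1 lay above all 4 of the ANG2 antibody. Without the first bispecific retina the median of the interferon response and antigen presentation list over the VEGFA antibody was 0.25.

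Mt2, a metallothionein that binds zinc and responds to metal and stress, stood at 48.5, 39.8, 29.8 and 55.4 CPM with the bispecific antibody against 25.8, 34.4, 17.5 and 24.5 with the VEGFA antibody, with the third bispecific retina overlapping. Its ratio was 1.69 (95% interval 1.16 to 2.48), and its mean with the ANG2 antibody was 34 CPM.

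Gm30531 and Rcc2_1, which the naming rule left out and which were chosen after their values were seen, had 0 counts in all 4 VEGFA-antibody retinas and were called by DESeq2 against that group. Gm30531 had 31, 24, 0 and 5 counts with the ANG2 antibody and 1, 9, 16 and 30 with the bispecific antibody. Rcc2_1, a suffixed copy that shares its symbol with another entry, had 122, 17, 18 and 1 and 40, 11, 73 and 11.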
